A study of Mus musculus with 4 samples.

Results

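Accessible chromatin at 55 genes of the cell cycle and of DNA replication was examined in libraries from newborn (P0) mice that are labelled as heart. The genes were taken as a named list of cyclins, cyclin-dependent kinases (CDKs), E2F and MYC factors, replication proteins and mitotic proteins, out of 21887 protein-coding genes on chromosomes 1 to 19, X and Y. They were read in 3 classes, with 19 genes of replication licensing and the replication fork, 19 genes of G1 to S control and 17 genes of G2 and mitosis. A gene had a gene peak in a library when the summit of a peak lay inside the gene or within 1 kb of either of its boundaries, and a boundary peak when the summit lay within 1 kb of a boundary.

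The assay was ATAC-seq, a method that uses a transposase to cut accessible DNA and sequences the pieces. The series holds 4 libraries from heart, all at P0, with 2 labelled WT and 2 labelled miR-187, which overexpress this microRNA. By the study's methods the miR-187 line carries an exogenous mmu-miR-187 inserted at the Rosa26 site under the Tek (Tie2) promoter and enhancer, which drive expression in endothelial cells, on a C57BL/6J background. The study names the genotypes of its mouse ATAC-seq as +/+ and KI/KI, homozygous for the knock-in. The labels give only WT and miR-187, and not the sex of the pups, or whether hearts were pooled. The labels name heart tissue, while the study describes its mouse accessibility data as coming from heart endothelial cells captured with CD31 beads at P0. The labels do not state this capture. Values listed for 4 libraries run in the order WT replicate 1, WT replicate 2, miR-187 replicate 1, miR-187 replicate 2. Of 12 endothelial marker genes, 3, 6, 5 and 2 had a gene peak in the 4 libraries. Pecam1, which encodes CD31, was in all but miR-187 replicate 2 and Cdh5 in all but miR-187 replicate 1, while Emcn, Cldn5 and Egfl7 had none. Of 10 cardiomyocyte markers, 3, 1, 2 and 0 had a peak. Tnni1 and Ryr2 were in WT replicate 1 and miR-187 replicate 1, Myl2 in WT replicate 1 and Tnnt2 in WT replicate 2. Myh6, Myh7, Actn2, Tnni3, Myl7 and Ttn had none. Endothelial shares were 25.0%, 50.0%, 41.7% and 16.7%, and cardiomyocyte shares 30.0%, 10.0%, 20.0% and 0%. All protein-coding genes had 29.8%, 38.5%, 26.1% and 5.05%. Of 6 fibroblast markers 2, 4, 1 and 0 had a peak, of 5 smooth muscle markers 0, 0, 0 and 1, of 5 immune markers 2, 0, 0 and 0, and of 5 erythroid markers none, and the part of cell composition in the results was not tested. Nothing in the labels says that replicates came from separate animals, and spread between them may be technical.

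A cell enters S phase when cyclin D with CDK4 or CDK6, and then cyclin E with CDK2, phosphorylate the retinoblastoma protein and release E2F factors from it. E2F factors drive transcription of the licensing and fork genes, and the MCM helicase is loaded at origins by ORC, CDC6 and CDT1. Genes of G2 and mitosis are transcribed later through promoter elements known as CHR and CCAAT boxes, and cyclin B with CDK1 starts mitosis. In the mouse heart many cells still divide at birth, and cardiomyocytes leave the cell cycle soon afterwards.

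The promoters with peaks in the most lists show which elements the accessible windows held. RefSeq promoter windows of assembly GRCm38.p6 were found for 41 of the 55 genes, and a peak of at least 1 list overlapped the window in 27 of them, in all 4 lists at Cdk4 and in 3 lists at Cdk1, Mcm5, Cdkn1b and Cenpa. No share over the windows of all genes is given, so this count served only to choose windows. For boundary peaks in at least 1 list, the shares were 69.1% of the 55 genes and 38.1% of all protein-coding genes. With Pcna, which led the genes with 2 such lists, these are the 6 windows printed here 5′ to 3′, each from 250 bases before the start to 30 bases after it. Capitals mark the E2F forms TTTCCCGC, TTTCGCGC, TTTGCCGC and TTTGGCGC, the CHR forms TTTGAA and TTTAAA, the CCAAT box, the E-box CACGTG and the cAMP response element TGACGTCA, on either strand, so that CCAAT also appears as ATTGG. The windows lie at chr10:127063285-127063564 on the forward strand (Cdk4), chr10:69352883-69353162 on the reverse strand (Cdk1), chr8:75109259-75109538 on the forward strand (Mcm5), chr6:134920151-134920430 on the forward strand (Cdkn1b), chr5:30666636-30666915 on the forward strand (Cenpa) and chr2:132253151-132253430 on the reverse strand (Pcna).
Cdk4: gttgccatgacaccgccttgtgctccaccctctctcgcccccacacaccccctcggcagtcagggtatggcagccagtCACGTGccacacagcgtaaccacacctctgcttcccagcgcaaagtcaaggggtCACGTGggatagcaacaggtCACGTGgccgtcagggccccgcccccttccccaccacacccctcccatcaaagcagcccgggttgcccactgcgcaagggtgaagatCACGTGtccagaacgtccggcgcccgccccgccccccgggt
Cdk1: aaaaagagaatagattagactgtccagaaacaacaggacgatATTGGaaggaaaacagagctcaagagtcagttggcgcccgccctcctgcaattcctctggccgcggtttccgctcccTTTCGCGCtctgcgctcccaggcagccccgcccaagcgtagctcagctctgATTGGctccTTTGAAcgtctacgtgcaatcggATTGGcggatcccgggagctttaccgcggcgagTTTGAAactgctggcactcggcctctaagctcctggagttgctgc
Mcm5: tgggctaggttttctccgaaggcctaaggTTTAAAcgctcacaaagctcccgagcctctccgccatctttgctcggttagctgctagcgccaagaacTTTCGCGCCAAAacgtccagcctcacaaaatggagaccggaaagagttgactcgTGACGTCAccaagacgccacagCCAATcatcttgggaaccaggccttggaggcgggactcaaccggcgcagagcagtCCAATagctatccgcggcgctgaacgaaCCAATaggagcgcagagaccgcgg
Cdkn1b: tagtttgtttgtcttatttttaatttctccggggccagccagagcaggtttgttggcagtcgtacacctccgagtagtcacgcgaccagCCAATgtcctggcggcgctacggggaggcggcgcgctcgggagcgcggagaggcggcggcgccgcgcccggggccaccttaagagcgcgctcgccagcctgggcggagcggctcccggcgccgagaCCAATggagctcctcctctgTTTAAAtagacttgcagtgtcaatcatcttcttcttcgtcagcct
Cenpa: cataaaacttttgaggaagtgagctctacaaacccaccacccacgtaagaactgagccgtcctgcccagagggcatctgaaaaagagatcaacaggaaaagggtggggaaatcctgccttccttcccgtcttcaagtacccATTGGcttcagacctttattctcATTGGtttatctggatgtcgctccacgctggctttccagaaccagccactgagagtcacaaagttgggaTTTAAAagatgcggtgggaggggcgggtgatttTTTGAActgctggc
Pcna: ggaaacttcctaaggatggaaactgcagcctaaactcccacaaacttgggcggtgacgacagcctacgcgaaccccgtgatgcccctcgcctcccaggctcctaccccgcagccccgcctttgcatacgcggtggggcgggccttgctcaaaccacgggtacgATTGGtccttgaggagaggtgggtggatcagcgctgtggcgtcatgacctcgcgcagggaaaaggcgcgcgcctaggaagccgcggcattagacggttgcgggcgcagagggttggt

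The 6 windows differed in what they held. Cdk4, the kinase partner of D cyclins, had no E2F, CHR or CCAAT match but 4 E-boxes, beginning at -172, -118, -98 and -11 bases from the start, and its summits in the 4 libraries lay 40 bp downstream, 113 bp upstream, 221 bp upstream and 195 bp downstream of it. Cdk1, the mitotic kinase, held TTTCGCGC at -131, TTTGAA at -71 and -15 and ATTGG at -208, -80 and -48, and its strongest summits lay 4, 33 and 17 bp upstream of the start in WT replicates 1 and 2 and miR-187 replicate 1, between the start and its nearest CCAAT box. Mcm5, a helicase subunit, held overlapping E2F matches on opposite strands at -153 and -149, TTTAAA at -221, a cAMP response element at -99 and 3 CCAAT boxes. Cdkn1b, which encodes the CDK inhibitor p27, and Cenpa, the centromeric histone, each held TTTAAA close before the start, at -15 and -17, and 2 CCAAT boxes. Cenpa also held TTTGAA at 17. Pcna, the sliding clamp of the replication fork, held 1 CCAAT box at -87, with the strongest summits of WT replicate 2 and miR-187 replicate 1 on either side of it, 78 and 91 bp upstream of the start.

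The same elements were counted over all windows of 300 bases, from 250 before to 50 after a start. Of the 46 windows of the 41 genes, 14 held an E2F match, 30.4%, against 2.85% of 21263 windows of all genes. CCAAT was in 32 windows (69.6%, against 38.2%), the GC box GGGCGG in 37 (80.4%, against 46.2%) and a CHR form in 21 (45.7%, against 25% of all windows). The E-box was in 5 windows (10.9%, against 7.84%) and the cAMP response element in 2 (4.35%, against 2.23%). Between genes with and without a peak over the window, E2F matches were in 9 of 27 and 5 of 14 genes, CHR forms in 14 of 27 and 6 of 14, CCAAT boxes in 22 of 27 and 8 of 14, and GC boxes in 24 of 27 and 9 of 14 genes, counting the window with the most lists for each gene. These are matches of letters and were not tested.

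The lists differed in length and depth before any gene was considered. They held 9452, 12298, 7496 and 1483 peaks on the chromosomes used and covered 2.88, 4.56, 2.37 and 0.372 Mb. Total read counts were not used here, and depth was inferred from the lists. The inferred background read density was 1751, 5227, 2016 and 1032 reads per Mb, so WT replicate 2 was 5.06 times as dense as miR-187 replicate 2. The median inferred number of reads at a summit was 8, 14, 9 and 6. MiR-187 replicate 2 had the shortest and least dense list. A gene missing from a list had no peak that passed the peak caller at that depth, which does not show that its chromatin was closed, and fewer cells with an open site cannot be told apart from less opening per cell.

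The first question was whether fewer cell cycle genes carried a peak with miR-187. WT replicates 1 and 2 had gene peaks at 33 and 33 of the 55 genes, and miR-187 replicates 1 and 2 at 21 and 7. Both WT libraries were above both miR-187 libraries. These counts are 60.0% (95% Wilson interval 46.8 to 71.9), 60.0% (46.8 to 71.9), 38.2% (26.5 to 51.4) and 12.7% (6.3 to 24) of the genes, and the intervals cover counting error only. Over all protein-coding genes the shares were 29.8%, 38.5%, 26.1% and 5.05%, again with both WT libraries above both miR-187 libraries. The mean was 33 ± 0 genes for WT against 14 ± 9.9 for miR-187 (SD, n = 2 each), a difference of -19 genes. Leaving out miR-187 replicate 2 gave a difference of -12 genes, and leaving out miR-187 replicate 1 gave -26. With lists of equal length the difference was -0.5 genes and after thinning to the lowest read density -4.88, and in neither setting were both WT libraries above both miR-187 libraries. The thinned counts are lower estimates for libraries that lost reads.

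Over all protein-coding genes the mean share was 34.1 ± 6.18% for WT against 15.6 ± 14.9% for miR-187 (SD, n = 2 each), a difference of -18.6 percentage points with a 2-sided exact permutation p of 0.333, the smallest that 2 libraries per group allow. It was -29.1 points without miR-187 replicate 1, -8.02 without miR-187 replicate 2 and -0.797 with lists of equal length. The cell cycle genes were given no p, because the list was chosen with earlier results of these data known.

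Counting only summits near a gene boundary gave the same order of groups. Boundary peaks were present at 25, 28, 17 and 5 of the 55 genes in the 4 libraries, or 45.5%, 50.9%, 30.9% and 9.09%, where all protein-coding genes had 21.0%, 29.9%, 19.4% and 3.07%. The means were 26.5 ± 2.12 and 11 ± 8.49 genes (SD, n = 2 each), a difference of -15.5. Without miR-187 replicate 2 the difference was -9.5, and with lists of equal length it turned to 0.5. The cell cycle genes were not longer than the rest, with a median length of 14347 bp against 17169 bp over all protein-coding genes.

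A share above that of all protein-coding genes was also found in other gene lists. These were further cell cycle genes, and the proteasome and mitochondrial ribosome genes that most cells use. Among 83 further cell cycle genes outside the list, 47, 61, 40 and 9 had a gene peak in the same order of libraries. Of 40 proteasome subunit genes the counts were 21, 28, 20 and 4, and of 78 genes of mitochondrial ribosomal proteins 37, 55, 40 and 8. The 55 genes had the highest share of these 4 lists in WT replicate 1, at 60.0% with 47.4% to 56.6% in the others, and in miR-187 replicate 2, at 12.7% with 10.0% to 10.8%. They had the lowest share in WT replicate 2, at 60.0% with 70.0% to 73.5% in the others, and in miR-187 replicate 1, at 38.2% with 48.2% to 51.3%. The place of the 55 genes among the lists thus differed within each group, and the Wilson intervals overlapped in every library. These differences between lists were not tested.

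**Figure D1:**
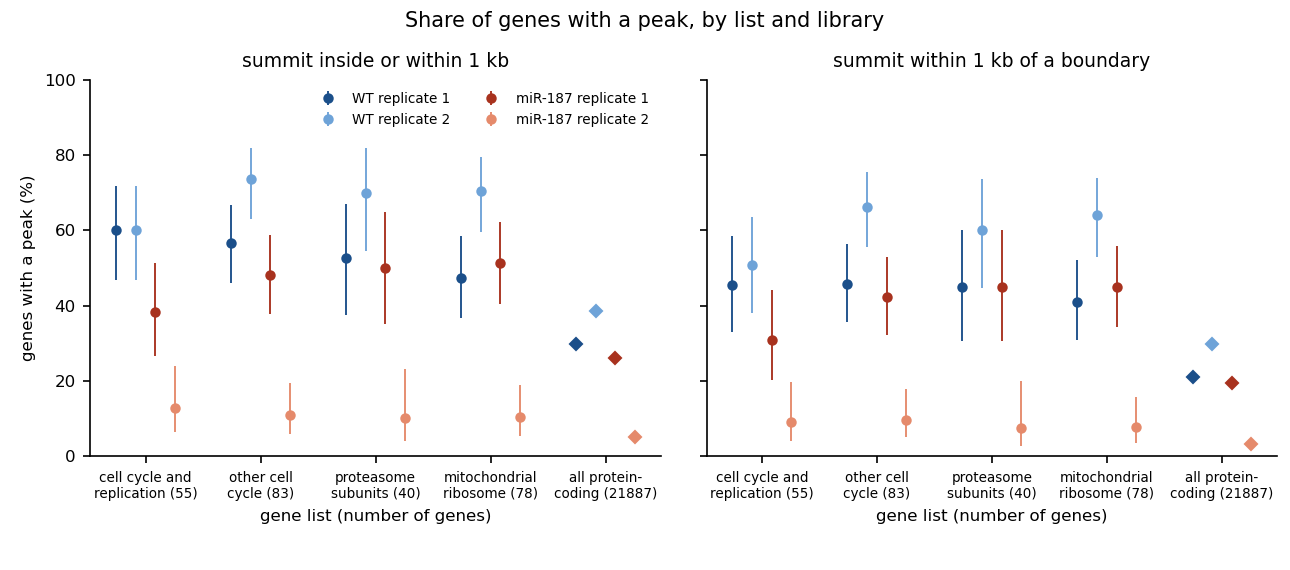
Share of genes with a peak (%) in each library for the 55 cell cycle and replication genes, 83 other cell cycle genes, 40 proteasome subunit genes, 78 mitochondrial ribosomal protein genes (circles with 95% Wilson intervals) and all 21887 protein-coding genes (diamonds), for gene peaks on the left and boundary peaks on the right. For the 55 genes the shares of gene peaks were 60.0%, 60.0%, 38.2% and 12.7%, and each list was lowest in miR-187 replicate 2.

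Which genes carried the peaks was then read across the 4 lists. A gene peak was in at least 1 list at 43 of the 55 genes (78.2%), where 49.5% of all protein-coding genes had one. It was in all 4 lists at Cdk4, Pcna and E2f3, 3 genes or 5.45% against 2.25% of all genes, and in 3 lists at a further 14 genes. For the 14 no share over all genes is given, so whether that count is unusual cannot be read. Both WT lists held 26 of the genes (47.3%, with 22.4% over all genes). As shares of all 55 genes, 17 were in both WT lists and also in a miR-187 list (30.9%, with 14.8% over all genes), and 9 were in both WT lists and no miR-187 list (16.4%, with 7.59% over all genes). The 17 became 4 without miR-187 replicate 1, and 0 with −log10 q 5 or higher or with lists of equal length. Those 4 are 15.4% of the 26 genes, with 13.1% over all genes in both WT lists. For the settings with 0 no share over all genes is given. The reverse pattern, both miR-187 lists and neither WT list, was met by Mcm3 alone (1.82%, with 0.164% over all genes).

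Starting from genes that both WT lists held, the cell cycle genes were missing from the miR-187 lists about as often as other genes were. Neither miR-187 list held 9 of 26, 34.6%, where the share over all protein-coding genes in both WT lists was 33.9%. MiR-187 replicate 1 held 16 of the 26 (61.5%, with 63.1% over all such genes) and miR-187 replicate 2 held 4 (15.4%, with 13.1%). With boundary peaks, 7 of 18 were in neither miR-187 list, 38.9% against 36.5%. The difference between these shares was not tested. Without miR-187 replicate 1, the genes missing from miR-187 were 22 of 26, 84.6% with 86.9% over all genes, without WT replicate 2 they were 15 of 33, 45.5% with 41.7%, and without WT replicate 1 they were 13 of 33, 39.4% with 43.1%.

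**Figure D2:**
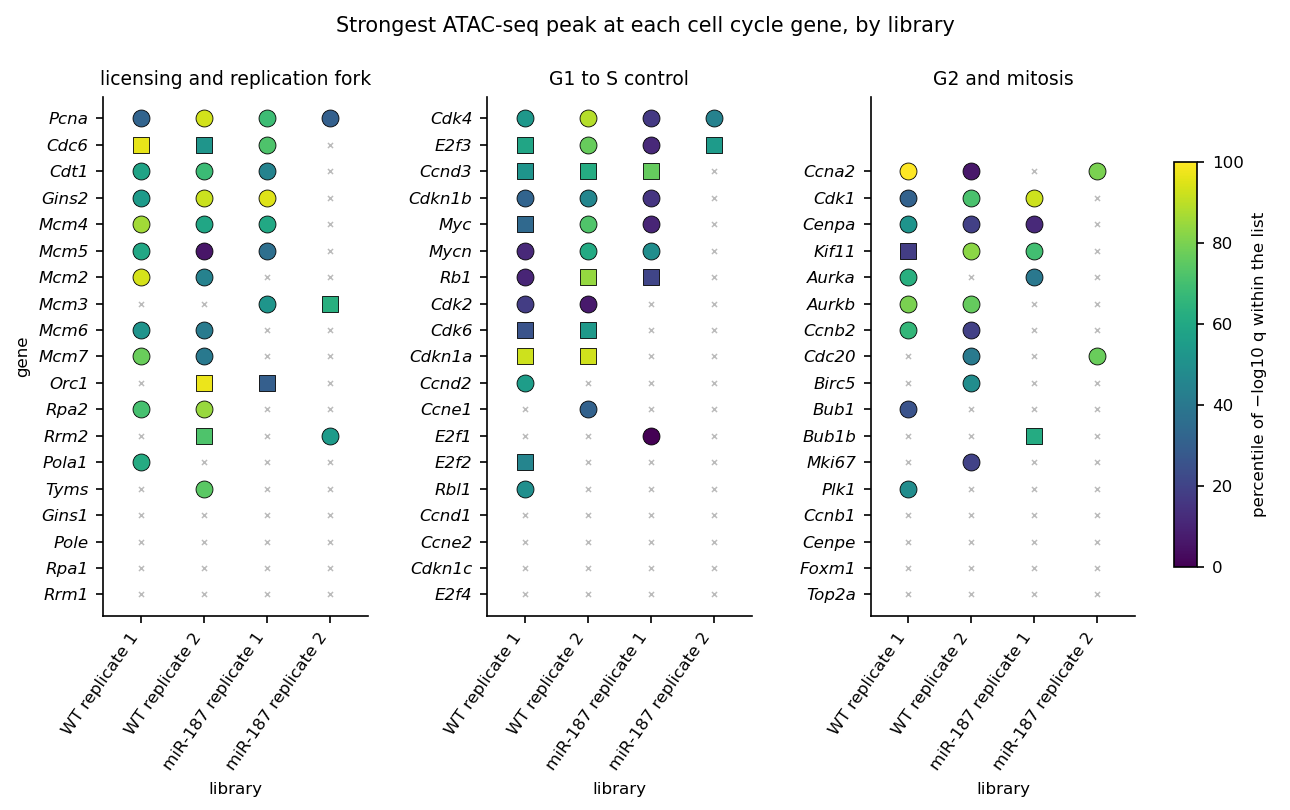
Each of the 55 genes (rows, by class) in each library (columns), coloured by the percentile of the −log10 q of its strongest peak among all peaks of that list. Circles are peaks with a summit within 1 kb of a gene boundary, squares are peaks inside the gene, and grey crosses mark genes with no peak in that list; the 12 genes with crosses throughout had no peak in any list.

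Licensing and fork genes were held by the lists at 11, 13, 8 and 3 of 19 genes in the 4 libraries, or 57.9%, 68.4%, 42.1% and 15.8%, beside 29.8%, 38.5%, 26.1% and 5.05% of all protein-coding genes. Of the 6 subunits of the MCM helicase, Mcm4 and Mcm5 were in 3 lists, Mcm2, Mcm6 and Mcm7 in both WT lists only, and Mcm3 in both miR-187 lists only. The fold enrichment at the summit is reads over local background as the authors' peak caller gave it. Its lowest value at a cell cycle gene was 3.68, 3.03, 3.51 and 5 in the 4 libraries. These minima come from 35, 47, 22 and 7 peaks in lists that differ in depth, and the part of depth was not tested. Folds are therefore set side by side and are not compared as levels of accessibility. The fold enrichment was 6.67, 5.16 and 5.66 at Mcm4 in WT replicates 1 and 2 and miR-187 replicate 1. At Mcm5 it was 5.39, 3.59 and 5.21 in the same libraries. Neither gene had a peak in miR-187 replicate 2. The peaks at Mcm4 also lay within 1 kb of the boundary of Prkdc, its neighbour.

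At Mcm2 the fold enrichment was 7.01 in WT replicate 1 and 4.09 in WT replicate 2, with summits 35 bp downstream and 4 bp upstream of the start. At Mcm6 it was 5.36 and 4.63, with summits 168 and 167 bp downstream of the start. At Mcm7 it was 6 and 4.44, and the peaks also lay near the boundary of Ap4m1. All 3 were absent from both miR-187 lists. At Mcm3 the fold enrichment was 5.77 in miR-187 replicate 1, 139 bp upstream of the start, and 5.65 in miR-187 replicate 2, 2993 bp downstream. These 2 peaks did not overlap, and the one in miR-187 replicate 2 had 6 reads at its summit.

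The helicase loaders gave other patterns. Cdc6 had fold enrichments of 8.05 and 5.07 in WT replicates 1 and 2, at overlapping peaks 10261 and 10297 bp downstream of the start, and 6.19 in miR-187 replicate 1 at a separate peak 444 bp upstream of it. Cdt1 had 5.17, 4.58 and 5.29 in WT replicates 1 and 2 and miR-187 replicate 1. The Cdc6 gene was thus in 3 lists, with a different site in miR-187 replicate 1. The Cdt1 peaks of WT replicate 2 overlapped those of WT replicate 1 and of miR-187 replicate 1, which did not overlap each other. Neither gene had a peak in miR-187 replicate 2. Orc1, the origin recognition subunit, had the strongest cell cycle peak of WT replicate 2, with a fold enrichment of 8.97 and a −log10 q of 12.6, and 5.11 in miR-187 replicate 1 at an overlapping peak. It had no peak in WT replicate 1 or miR-187 replicate 2, and both summits, 78 bp upstream and 20 bp downstream of its start, also lay near the boundary of Prpf38a.

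At the fork itself, Pcna had fold enrichments of 4.84, 6.89, 6.18 and 5 in the 4 libraries. No order of the groups is seen in these values. Its peaks overlapped between all pairs of lists except the miR-187 pair, and the boundary of Cds2 was within 1 kb of them. Gins2, a subunit of the GINS complex, had 5.19, 6.88 and 8 in WT replicates 1 and 2 and miR-187 replicate 1, the last being the strongest cell cycle peak of that list (−log10 q 8.64). These were 10, 21 and 15 reads over backgrounds of 1.12, 2.2 and 1, and the gene had no peak in miR-187 replicate 2. Rpa2, a subunit of the single-strand binding protein, was in both WT lists only, with 5.95 and 6.42.

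The remaining licensing and fork genes were in few lists or none. Rrm2, the small subunit of ribonucleotide reductase, was held by the second list of each group. The strongest peak of WT replicate 2 had a fold enrichment of 5.31, 2048 bp downstream of the start, and a weaker one of 4.4, 313 bp downstream, overlapped the peak of 5.56 in miR-187 replicate 2, 112 bp downstream. Pola1 was in WT replicate 1 only and Tyms in WT replicate 2 only. Gins1, Pole, Rpa1 and Rrm1 had no peak in any list.

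**Figure D3:**
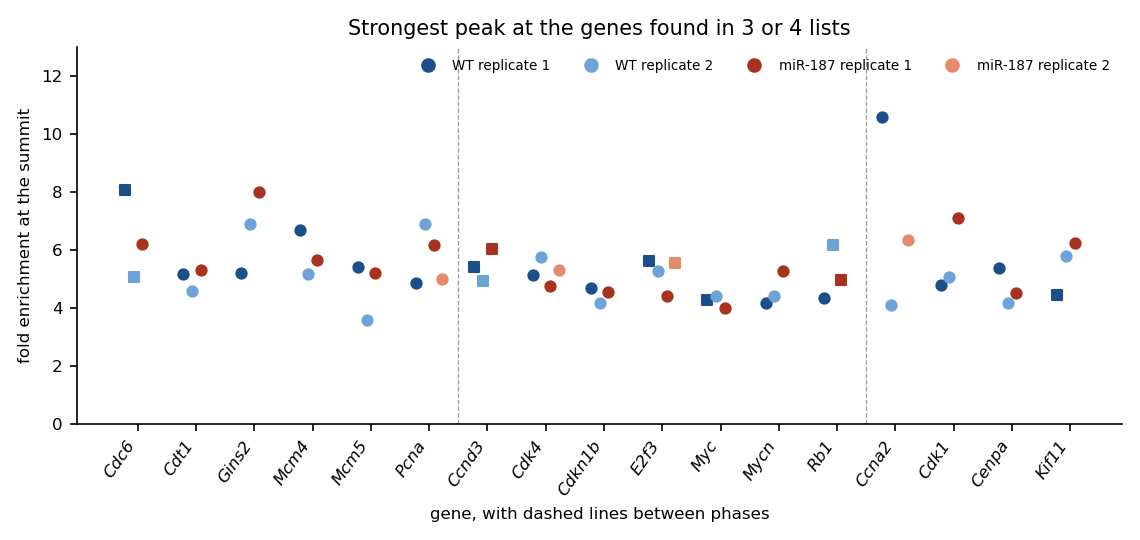
Fold enrichment at the summit of the strongest peak in each library for the 17 genes with a gene peak in 3 or 4 lists, with dashed lines between licensing and fork, G1 to S, and G2 and mitosis genes. Circles are boundary peaks and squares peaks inside the gene; no point is drawn where a list had no peak. Most values lay between 4 and 8, and Ccna2 in WT replicate 1 was highest at 10.6.

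The genes of G1 to S control had gene peaks at 13, 11, 8 and 2 of 19 in the 4 libraries (68.4%, 57.9%, 42.1% and 10.5%, beside 29.8%, 38.5%, 26.1% and 5.05% of all genes). Their boundary peaks, at 7, 8, 6 and 1 genes, were 36.8%, 42.1%, 31.6% and 5.26%, beside 21.0%, 29.9%, 19.4% and 3.07% of all genes. Cdk4 had fold enrichments of 5.14, 5.76, 4.74 and 5.3. Its peaks were the only ones among the 3 genes in all 4 lists that overlapped in every one of the 6 pairs of lists. E2f3, an activating E2F factor, had 5.62, 5.28, 4.39 and 5.56, but its peaks overlapped only between WT replicate 2 and miR-187 replicate 1, both near the start. WT replicate 1 had 3 peaks inside the gene, the strongest 57914 bp downstream and the others 28948 and 22987 bp, and the peak of miR-187 replicate 2 lay 26316 bp downstream.

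CDK6, the other partner of D cyclins, and CDK2, the partner of cyclin E, were in both WT lists only. Cdk6 had fold enrichments of 4.46 and 4.94, at peaks that did not overlap in a gene of 190005 bp. Cdk2 had 4.49 and 3.96, at peaks 611 and 367 bp downstream of the start that did not overlap either. Neither gene therefore had a site shared by the WT libraries. Cdkn1a, which encodes the CDK inhibitor p21, was also in both WT lists only, with fold enrichments of 6.08 and 5.51 and −log10 q of 6.59 and 10.2. It ranked among the 3 strongest genes of WT replicate 2 and had 3 peaks there, 1 of which overlapped the peak of WT replicate 1.

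Cdkn1b had 4.67, 4.15 and 4.55 in WT replicates 1 and 2 and miR-187 replicate 1, at overlapping peaks over the promoter printed above. Rb1, the retinoblastoma gene, had 4.32, 6.17 and 4.94 in the same libraries, at 3 sites of which none overlapped, and the summit in WT replicate 2 also lay within 1 kb of the boundary of Lpar6. Ccnd3, a D cyclin, had 5.41, 4.92 and 6.03, again with no overlap, in a gene of 94639 bp. Counts of gene peaks at Rb1, Ccnd3, E2f3 and Cdk6 thus rest largely on sites that differ between libraries.

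Of the MYC family, Mycn had 4.17, 4.41 and 5.26 in WT replicates 1 and 2 and miR-187 replicate 1, at overlapping peaks 716, 714 and 693 bp upstream of the start. Myc had 4.28, 4.39 and 4 in these libraries, with overlap between WT replicate 2 and miR-187 replicate 1 only. Both were absent from miR-187 replicate 2. E2f2, Rbl1 and Ccnd2 were in WT replicate 1 only, Ccne1 in WT replicate 2 only and E2f1 in miR-187 replicate 1 only, where its −log10 q of 1.33 was at the foot of the list. Ccnd1, Ccne2, Cdkn1c and E2f4 had no peak in any list.

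Genes of G2 and mitosis had gene peaks at 9, 9, 5 and 2 of 17 (52.9%, 52.9%, 29.4% and 11.8%, beside 29.8%, 38.5%, 26.1% and 5.05% of all genes). Their boundary peaks, at 8, 9, 4 and 2 genes, were 47.1%, 52.9%, 23.5% and 11.8%, beside 21.0%, 29.9%, 19.4% and 3.07%. In miR-187 replicate 1 both shares of this class lay near those of all genes. Ccna2, which encodes cyclin A2, had the strongest cell cycle peak of WT replicate 1 (fold enrichment 10.6, −log10 q 14.4, 20 reads) and of miR-187 replicate 2 (6.34, 3.98 and 8 reads), against 4.1, 2.5 and 9 reads in WT replicate 2. It had no peak in miR-187 replicate 1. All 3 peaks overlapped, and all lay within 1 kb of the boundary of Bbs7. Cdk1 had 4.79, 5.05 and 7.08 in WT replicates 1 and 2 and miR-187 replicate 1, from 8, 19 and 16 reads over backgrounds of 0.88, 2.96 and 1.4 at overlapping sites.

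Cenpa had 5.36, 4.17 and 4.5 in the same libraries, at overlapping peaks. Kif11, the spindle motor, had 4.44, 5.8 and 6.25, where WT replicate 2 and miR-187 replicate 1 shared a site at the start and WT replicate 1 had another inside the gene. Ccnb2, a B cyclin, was in both WT lists only with 5.88 and 4.67, and Aurkb, a kinase of the chromosomal passenger complex, likewise with 5.56 and 4.91. The WT peaks overlapped at both genes.

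Cdc20, the activator of the anaphase-promoting complex, had 4.79 in WT replicate 2 and 6.25 in miR-187 replicate 2, at peaks that did not overlap. Aurka, the spindle pole kinase, had 5.77 in WT replicate 1 and 5.32 in miR-187 replicate 1, near the boundary of Cstf1. Bub1 and Plk1 were in WT replicate 1 only, Birc5 and Mki67 in WT replicate 2 only and Bub1b in miR-187 replicate 1 only. Ccnb1, Cenpe, Foxm1 and Top2a had no peak in any list. Over all classes, the 12 genes in 1 list had strongest peaks with fold enrichments from 3.51 at E2f1 to 6.36 at Tyms.

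The strength of a peak was also ranked within its own list, and such ranks depend on the length of the list. Among genes with a peak, the median percentile of −log10 q of the strongest peak was 53.2, 60.7, 44.8 and 54.3 in the 4 libraries, against 58.7, 61.2, 56.7 and 50.9 over all protein-coding genes with a peak. The group means were 57 ± 5.36 and 49.6 ± 6.74 (SD, n = 2 each), a difference of -7.4 percentile points with overlapping groups, which reversed to 12.5 with lists of equal length. The medians at equal length rested on only 5, 5, 2 and 7 genes in the 4 libraries. The difference was -1.32 with boundary or start windows only, -3.61 without WT replicate 2 and -2.63 when miR-187 replicate 1 was left out. Within WT replicate 1 the strongest peak of each gene ran from the 10.2 percentile (Rb1) to 99.7 (Ccna2), and within miR-187 replicate 1 from 0.0133 (E2f1) to 95.3 (Gins2).

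Peaks at the same gene did not always mark the same site. Of the 26 genes that both WT lists held, 19 had peaks that overlapped by at least 1 bp, 73.1% where all such genes had 79.9%. Between WT replicate 2 and miR-187 replicate 1 it was 14 of 17 (82.4%, with 84.3% over all genes). Between WT replicate 1 and miR-187 replicate 1 it was 8 of 17 (47.1%, with 75.8%). Pairs with miR-187 replicate 2 rest on few genes, with 3 of 4 for WT replicate 1 (75.0%, with 59.7%), 4 of 6 for WT replicate 2 (66.7%, with 70.2%) and 1 of 4 for miR-187 replicate 1 (25.0%, with 62.1%). These differences from all genes went in both directions and were not tested. The genes without overlap between WT replicate 1 and miR-187 replicate 1 were Mcm5, Cdt1, Cdc6, E2f3, Rb1, Myc, Mcm4, Ccnd3 and Kif11.

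Summits could be placed relative to a transcription start for the genes in the promoter table. Within 250 bp of a start lay 12 of 28, 14 of 41, 10 of 18 and 3 of 6 summits in the 4 libraries. These are 42.9%, 34.1%, 55.6% and 50.0%, where summits at all genes with a start gave 43.5%, 48.5%, 50.9% and 39.8%.

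**Figure D4:**
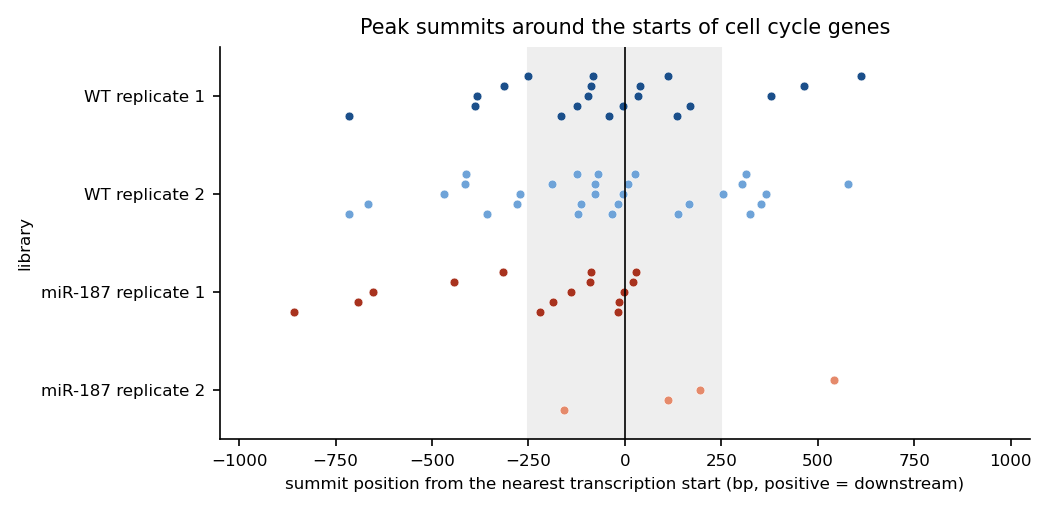
Position of each peak summit from the nearest transcription start (bp, positive downstream) at the cell cycle genes with a start in the promoter table, 1 row of points per library, for summits within 1 kb; the grey band marks 250 bp on either side, and vertical scatter within a row only separates points. The band held 12, 14, 10 and 3 summits from top to bottom.

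The counts were repeated with lists of 1 length. Equal lengths bring the shares over all genes close together by construction, so this shows which genes lead each list and does not test the cause of the group difference. When each list was cut to its 1483 strongest peaks, the length of the shortest list, gene peaks were at 5, 5, 2 and 7 of the 55 genes, and the difference between group means was -0.5 genes in place of -19. All protein-coding genes then had 6.2%, 6.78%, 6.35% and 5.05%, a difference of -0.797 points. The boundary peak difference became 0.5. The genes left were Ccna2, Mcm2, Cdc6, Mcm4 and Cdkn1a in WT replicate 1, Pcna, Orc1, Gins2, Cdk4 and Cdkn1a in WT replicate 2, Gins2 and Cdk1 in miR-187 replicate 1, and all 7 genes of miR-187 replicate 2, which were Mcm3, Pcna, Ccna2, Cdc20, Cdk4, Rrm2 and E2f3. Cdkn1a was then the 1 gene in both WT lists and neither miR-187 list. Its strongest peaks in WT replicates 1 and 2 had summits 1529 and 25 bp downstream of the start and did not overlap. No share over all genes is given for this count.

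Thinning every list to the lowest background read density, an alternative chosen after the data were seen, left an expected 20.3, 7.76, 11.3 and 7 genes in the 4 libraries. The expected difference was -4.88 genes, and without WT replicate 1 it turned to 1.39. The expected value of WT replicate 2, the densest library, was below that of miR-187 replicate 1. That of WT replicate 1 stayed above both miR-187 libraries. Thinning kept 0.198 of the reads of WT replicate 2 and 0.512 of those of miR-187 replicate 1. Both values are lower estimates, so the order of these libraries cannot be read from them. Over all protein-coding genes the expected shares were 19.3%, 9.22%, 16.1% and 5.05%, a difference of -3.69 points. With −log10 q 5 or higher, 6, 18, 5 and 0 of the 55 genes had a peak, so WT replicate 1 exceeded miR-187 replicate 1 by 1 gene, and over all protein-coding genes, at 8.09%, 22.2%, 9.58% and 0.439%, miR-187 replicate 1 was above WT replicate 1. How far depth accounts for the shorter miR-187 lists was not tested beyond these values.

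**Figure D5:**
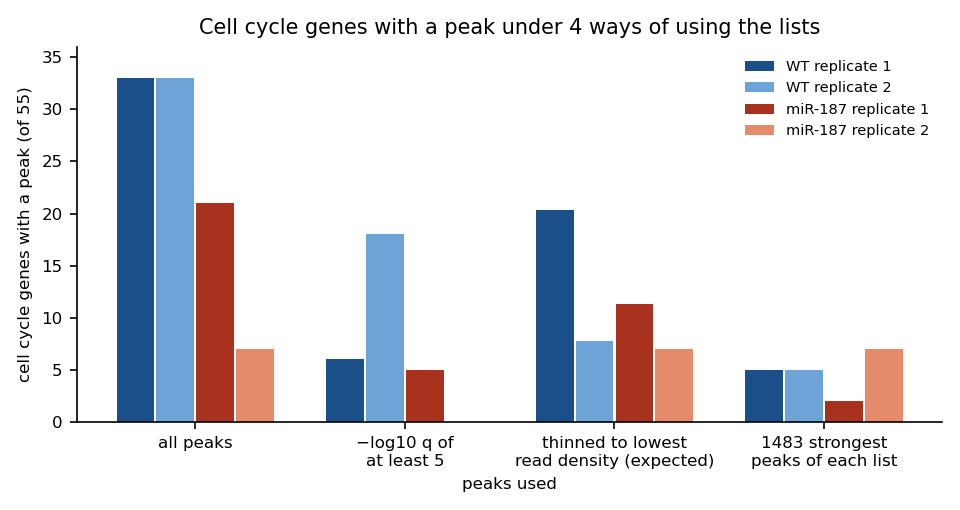
Number of the 55 cell cycle genes with a gene peak in each library, from all peaks, from those at −log10 q 5 or higher, expected after thinning to the lowest read density, and from the 1483 strongest peaks of each list. Both WT bars exceed both miR-187 bars with all peaks (33 and 33 against 21 and 7), by 1 gene at the least with −log10 q 5 or higher (6 and 18 against 5 and 0), and not under the other settings.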

How the data were processed

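The 4 ATAC-seq libraries, labelled as heart and described by the study as CD31 bead-captured endothelial cells of newborn mice, were sequenced as read pairs. The submitters' processing notes name Bowtie2 2.2.6, SAMtools 1.10, MACS2 2.2.7.1, deepTools 3.3.2, HOMER 4.11 and the build mm10, without saying which step each served. Duplicate and mitochondrial read handling and any control are not given in the sources used here. The authors deposited 1 peak list per library, with peak and summit positions, a score that follows the −log10 q, a fold enrichment at the summit (a ratio), and the −log10 p and −log10 q of each peak. The deposited lists hold no read counts.

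Groups were read from the sample titles (2 WT, 2 miR-187). Peaks on unplaced scaffolds (6, 20, 6 and 0) were left out. Coordinates are 1-based. Genes were taken from a RefSeq table of GRCm38.p6, the assembly of mm10, which gives no strand, and starts and promoter sequences from RefSeq promoters of the same build. The cell cycle genes, the comparison lists and the marker genes were chosen with earlier results of these data known. All 55 genes are named by class. Values in each library are given for genes with a peak in 3 or 4 lists, for those in both lists of 1 group and neither of the other, and for the 3 strongest of each list by −log10 q, and promoters for up to 6 genes by number of lists with a peak over the window.

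Summit reads and backgrounds were solved from fold and −log10 p, taking fold as (reads + 1)/(background + 1) and p as the upper Poisson tail. The most frequent background, outside the values that whole reads over a local window give, was taken as genome-wide, and no peak was solved below it. Divided by 200 bp, this background gave the background read density, which is an inference. A solution was found for 100% of peaks, and the solver for single peaks was tested on simulated data whose backgrounds did not span those of every list. The step that sets the background density of a list was not tested. In thinning, reads were kept in the ratio of 2 densities and the chance that a peak still reached the threshold was summed. The expected values are lower estimates, since a peak that the deeper list did not call cannot enter. This does not apply to miR-187 replicate 2, which kept all its reads. The shortfall may differ between libraries, which kept 0.589, 0.198, 0.512 and 1 of their reads.

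Shares have 95% Wilson intervals. The share over all genes was compared with an exact permutation test over 6 assignments of libraries. Alternatives were a −log10 q of at least 5, lists of equal length, windows of 3 kb and 250 bp, boundary or start windows only, any base of the peak, differences within replicate numbers (a replicate block), and omission of each library. The work was done in Python 3.11.15 with scipy 1.17.1, statsmodels 0.14.6, pandas 2.3.3, numpy 2.4.6 and, for plots, matplotlib 3.10.9.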

Additional observations from a re-analysis of the deposited data

How the results depend on the processing

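Of 89 alternative values, 59 kept their direction and, for untested values and counts, stayed within 1 SD between replicates or within 1.5 times the count, 25 moved further and 5 reversed. The SD between libraries was large, and the share over all genes (-18.6 points) was among the 59 at -10.1 with a −log10 q of at least 5, -0.797 with lists of equal length and -3.69 after thinning, none of which had an exact permutation p below 0.667. The percentile difference was -1.32 with boundary or start windows only. Differences are miR-187 minus WT. With a −log10 q of at least 5, the difference in gene peaks was -9.5 genes and in boundary peaks -6.5, the genes in both WT lists and neither miR-187 list numbered 3, the genes in both WT lists and any miR-187 list 0, the genes in both miR-187 lists only 0, and the gene and library pairs with a peak 29 in place of 94. The percentile rank could not be compared there, since miR-187 replicate 2 had no cell cycle gene left. With lists of equal length these values were -0.5 (gene peaks), 0.5 (boundary peaks, reversed), 1, 0, 0 and 19, and the difference in median percentile reversed to 12.5. Those medians rested on only 5, 5, 2 and 7 genes in the 4 libraries. The 250 bp window gave a boundary peak difference of -7 and 11 genes in both WT lists and any miR-187 list, and windows at boundaries or starts only gave 11 and 0 for the retained genes and for those in both miR-187 lists only. No share over all protein-coding genes is given beside these counts of genes and pairs. They are therefore not read as particular to the cell cycle genes.

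Leaving out each library in turn, the difference in gene peaks ranged from -26 to -12, the genes in both WT lists and neither miR-187 list from 10 to 22, the genes in both WT lists and any miR-187 list from 4 to 20 and those in both miR-187 lists only from 1 to 3. The 10 and 22 were 38.5% and 84.6% of the 26 genes in both WT lists, with 36.9% and 86.9% over all such protein-coding genes. For the last 2 ranges no share over all genes is given here. Boundary peak differences ranged from -21.5 to -9.5, percentile differences from -12.2 to -2.63 and the share over all genes from -29.1 to -8.02 points. Thinning to the lowest density gave -4.88 genes. Without each library this became 1.39 (without WT replicate 1), -11.2 (without WT replicate 2), -7.03 (without miR-187 replicate 1) and -2.73 (without miR-187 replicate 2), and the thinned share over all genes reversed to 1.36 points when WT replicate 1 was left out and to 1.84 when miR-187 replicate 2 was. Fewer peaks or libraries enter under these settings, and the cause of each change was not tested further.

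With the replicate number as a replicate block the differences were the same by construction, at -19 genes, -15.5 genes, -7.4 percentile points and -18.6 points over all genes (exact sign-flip p = 0.5, the smallest that 2 pairs allow). The numbers only name libraries, and same-numbered libraries had a correlation of deviations of -0.0779 over 21887 genes. Depth limits every absence from a list, most of all in miR-187 replicate 2, where a cell cycle peak had 6 to 8 reads at its summit.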
